A study of Mus musculus with 55 samples.

Results

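The mTOR, PI3K and ERK signalling module is a list of 32 genes, taken by symbol from a table of 22800, that encode the kinases, GTPases and regulators lying downstream of the group 1 metabotropic glutamate receptors. All 32 symbols were present. They were divided by role into 8 genes of PI3K and AKT signalling, 9 of the TSC, Rheb and mTOR complexes, 2 GSK3 kinases, 5 genes of Ras and its regulators, 4 of the RAF, MEK and ERK cascade and 4 kinases activated by ERK.

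Cytosol drawn by patch pipette from individual pyramidal neurons of mouse prefrontal cortex was turned, as total RNA, into Nextera XT libraries and sequenced, in a study that set an Fmr1 knockout against mice without it in neurons labelled D1 or D2. The names D1 and D2 are those of dopamine receptor types. A label called side, not explained further, has one value in every D1 cell and another in every D2 cell, so side and cell type cannot be told apart. There were 6 Fmr1 knockout (KO) D1 cells and 7 KO D2 cells, against 15 D1 and 26 D2 cells labelled as having no knockout, called wild-type (WT) here, 54 in all. The design text gives the knockout animals as Fmr1-/y mice, a model of fragile X syndrome; the strain of the others is not stated in the labels. The KO D1 cells came from mice of 31 days (1 cell) and 32 days (5 cells) and all 7 KO D2 cells from mice of 32 days. WT D1 cells came from 28 to 34 days and WT D2 cells from 29 to 35 days. The labels do not tie cells to animals, so each group is 1 sample here and no test across groups was possible; differences below are descriptions, and genotype and age can hardly be told apart.

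Group 1 metabotropic glutamate receptors, bound to Homer scaffolds, activate PI3K through the GTPase encoded by Agap2 (also called PIKE). PI3K lipids recruit PDK1 and AKT; AKT relieves the brake that the TSC complex holds on the GTPase Rheb, and Rheb then activates mTOR complex 1, which drives cap-dependent translation through the S6 kinases. In parallel, Ras activates the RAF, MEK and ERK kinases, and ERK acts on translation through RSK and MNK kinases. Both arms are reported to be overactive in the absence of FMRP, the RNA-binding protein made by Fmr1, and are needed for the receptor-dependent synaptic depression that is enhanced in fragile X models; that activity lies largely in protein phosphorylation, which RNA counts do not measure.

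Reads of Fmr1 were found in 0 of 6 KO D1 and 0 of 7 KO D2 cells, against 8 of 15 WT D1 and 13 of 26 WT D2 cells. Total counts per cell ran between 260943 and 10673072. The cells formed a gene-rich set of 34, with a read in at least 4000 genes, and a gene-poor set of 20. All 6 KO D1 cells and 6 of 7 KO D2 cells were gene-rich, against 9 of 15 WT D1 and 13 of 26 WT D2 cells, so a KO minus WT difference over all cells also sets cells of unequal gene richness against each other, and many differences were smaller or of the other sign among gene-rich cells. Mitochondrial reads made up at most 3.72% of counts in KO D1 and 16.6% in KO D2 cells, against 44.8% in WT D1 and 29.3% in WT D2 cells. Their medians lay closer, at 2.35% in KO D1 and 4.14% in KO D2, against 4.46% in WT D1 and 3.91% in WT D2 cells. The part of gene richness and of mitochondrial reads in the differences was not tested. All 8 pyramidal neuron markers had reads in each group.

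Cells carried reads of between 4 and 31 of the 32 members. KO D1 cells had 16 to 29 members (median 22) and KO D2 cells 11 to 26 (median 21), against 4 to 28 (median 18) in WT D1 and 4 to 31 (median 21) in WT D2 cells. Among gene-rich cells the medians were 22 in KO D1 and 21 in KO D2, against 21 in WT D1 and 26 in WT D2 cells. Gene-poor cells had 4 to 20 members, with a median of 7.5, and gene-rich cells 14 to 31, with a median of 23. How many members a cell showed thus followed how many genes it showed at all, whatever its group.

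**Figure D1:**
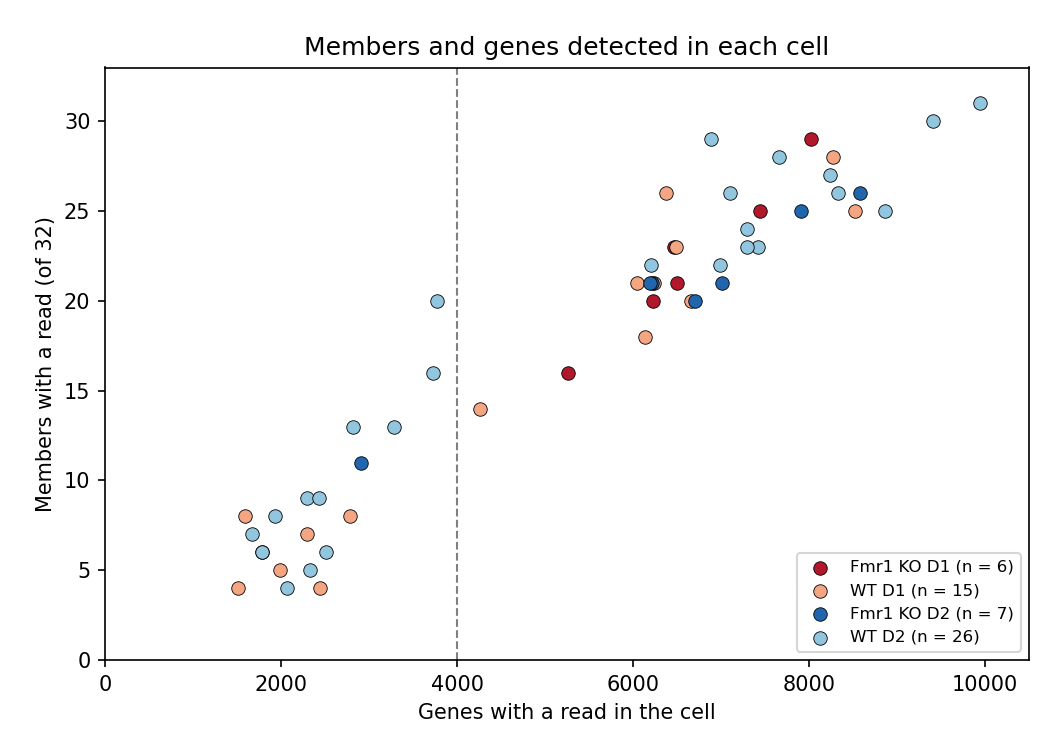
Members with a read (of 32, vertical axis) against genes with a read (horizontal axis) in each of the 54 cells; each point is a cell, coloured by group, and the dashed line marks 4000 genes. The 20 gene-poor cells lie at 4 to 20 members and the 34 gene-rich cells at 14 to 31, and 12 of the 13 KO cells lie right of the line.

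The most often read member was Gsk3b, a kinase inhibited by AKT, with reads in 45 of 54 cells, and the least often read was Ddit4, the stress-induced inhibitor of mTOR complex 1 also known as REDD1, with reads in 10. Of the 32 members, 20 were read in more than 50% of the 54 cells. Per kilobase of exon, the scale on which levels of different genes are compared, Map2k1 (the kinase MEK1) had the highest mean level over the 54 cells at 73.9 CPM (reads of a gene scaled to the cell's total) per kb. It was followed by Hras at 70.7, Rheb at 38.6, Mapk3 (the kinase ERK1) at 33.3 and Map2k2 (MEK2) at 29.1 CPM per kb, and Ddit4 was lowest at 1.40 CPM per kb. The spread between cells was as large as these levels: Map2k1 averaged 250 ± 450 CPM and Hras 264 ± 381 CPM (SD, n = 54), so neighbours in this order do not differ beyond their spread. The highest values of Map2k1 (2467 CPM, WT D1 cell 14), Hras (1786 CPM, WT D2 cell 1) and Mapk3 (1047 CPM, WT D1 cell 11) were all in gene-poor cells. The order among gene-rich cells alone was not computed and may be another.

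**Figure D2:**
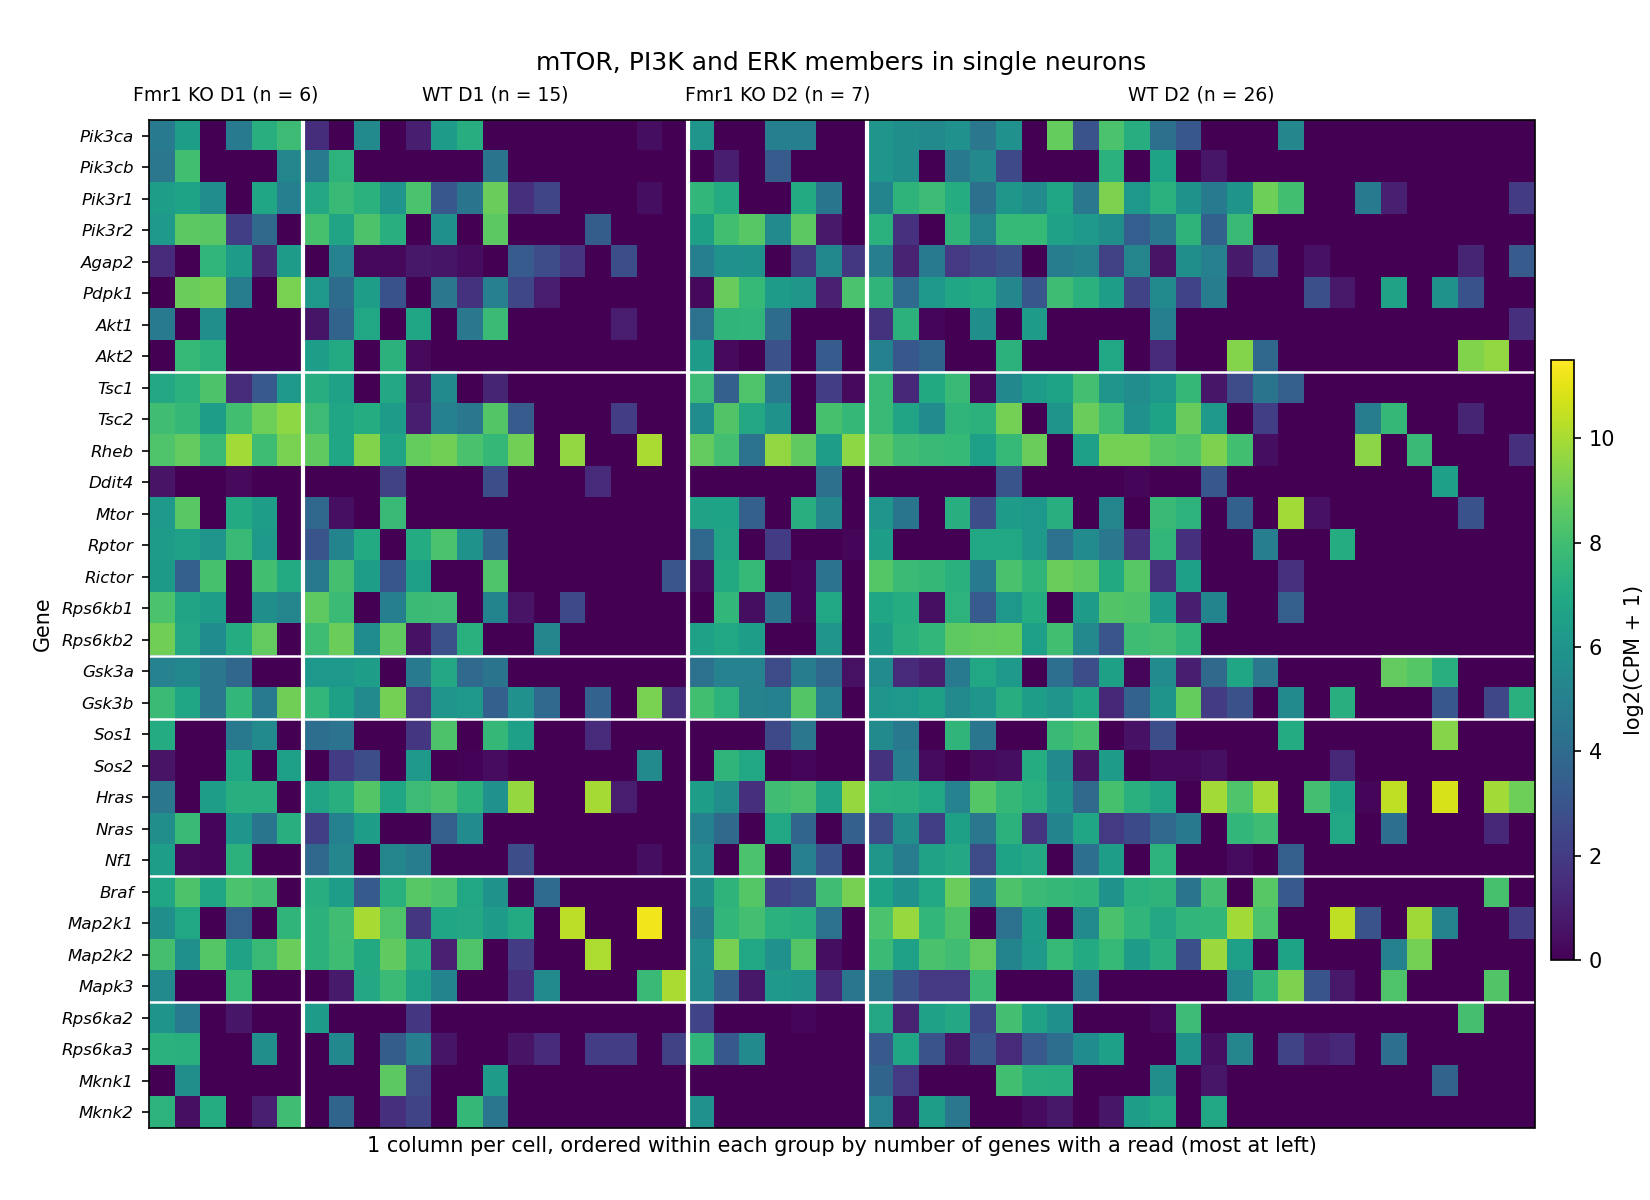
Level of each member, as log2(CPM + 1), in each of the 54 cells; rows are genes grouped by role and columns are cells grouped by genotype and type, ordered within a group by genes with a read. Dark cells of the map, without a read, gather at the right of the WT D1 and WT D2 blocks, where the 6 and 13 gene-poor cells stand. Rheb has reads in all 6 KO D1 and all 7 KO D2 cells, at uneven levels.

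The first comparison set KO D1 against WT D1 cells. A difference here is that between the groups' means of log2(CPM + 1), KO minus WT or, below, D1 minus D2, and a gene counts as measured where its mean is at least 1 CPM and at least 10% of the cells compared have a read. Of 31 measured members, 16 were higher in KO D1 cells by at least 2 log2 units (51.6%) and 0 were lower by as much; of all 10792 measured genes, 27.6% were higher and 1.34% lower by as much. The members' median difference was 2.07, against 0.98 over all measured genes, and Ddit4 was the member below the measurement limit, with reads in 2 of 6 KO D1 and 3 of 15 WT D1 cells. Among gene-rich cells 7 members were higher and 2 lower by at least 2 log2 units, against 12.1% and 8.11% of all measured genes, and the members' median was 0.99, against 0.14 over all genes.

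All 8 measured genes of the TSC, Rheb and mTOR group were past 2 log2 units, with a median of 2.96. Among gene-rich cells 3 of the 8 were, with a median of 1.48. Against WT D1 cells of 31 days, which include the gene-poor cell 11, 4 of the 8 were. Their summed level, Ddit4 included, ran from 1096 to 1728 CPM with a median of 1600 in KO D1 cells, against 1.59 to 1474 CPM with a median of 888 in WT D1 cells. It averaged 1536 ± 233 CPM in KO D1 (SD, n = 6) and 716 ± 503 CPM in WT D1 cells (n = 15), and 5 of 6 KO D1 cells lay above every WT D1 cell. The WT D1 mean includes 6 gene-poor cells, and the sum was not taken among gene-rich cells alone. The highest WT D2 cell, at 1806 CPM, lay above every KO D1 cell.

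Tsc2 encodes tuberin, the part of the TSC complex that switches Rheb off. Its level ran from 85.8 to 736 CPM with a median of 254 in KO D1 cells, against 0 to 347 CPM with a median of 8.99 in WT D1 cells. Means were 338 ± 236 CPM in KO D1 (SD, n = 6) and 65.1 ± 104 CPM in WT D1 cells (n = 15), a difference of 4.59 over all cells, 2.49 among gene-rich cells and 1.74 as the log2 ratio of summed counts. Every KO D1 cell lay above the WT D1 median and 4 of 15 WT D1 cells reached the lowest KO D1 cell, so the groups overlapped. Of the 9620 exon bases of Tsc2 on chromosome 17, 693 also belong to Pkd1 on the other strand; no source used here states whether counting used strand, and reads from the shared bases cannot be told apart.

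Tsc1, hamartin, the partner that stabilises tuberin, ran from 1.71 to 309 CPM with a median of 95.7 in KO D1 cells, against 0 to 143 CPM with a median of 0 in WT D1 cells. Its difference was 3.68 over all cells and 2.43 among gene-rich cells. Both TSC genes were read together in 6 of 6 KO D1 and 6 of 7 KO D2 cells, against 6 of 15 WT D1 and 14 of 26 WT D2 cells. All 6 KO D1 cells exceeded the WT D1 median of Tsc1, and 4 of 15 WT D1 cells reached the lowest KO D1 cell.

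Mtor, the kinase at the core of both mTOR complexes, ran from 0 to 377 CPM with a median of 79.0 in KO D1 cells, against 0 to 217 CPM with a median of 0 in WT D1 cells. It was read in 4 of 6 KO D1 cells (66.7%, exact Clopper-Pearson 95% interval 22.3 to 95.7%) and in 3 of 15 WT D1 cells (20%, 4.33 to 48.1%); intervals cover counting error only. The difference was 3.90 over all cells and 3.36 among gene-rich cells. It stayed above 2 in 31 of 31 alternative treatments of the data, the lowest being 2.12 from summed counts. Most of these left out a single cell, and dropping the filter on low values cannot change a gene's difference. The treatments are therefore not independent of each other. The groups overlapped at 0, where 2 of 6 KO D1 and 12 of 15 WT D1 cells lay.

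Rheb, the GTPase that activates mTOR complex 1, ran from 223 to 946 CPM with a median of 370 in KO D1 cells, against 0 to 1048 CPM with a median of 294 in WT D1 cells. Its difference was 2.38 over all cells and 0.40 among gene-rich cells. Reads of Rheb were absent from 4 WT D1 cells, and 8 of 15 WT D1 cells reached the lowest KO D1 cell.

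The other mTOR genes were less even. Rptor, the scaffold of complex 1, differed by 2.80 and Rictor, the scaffold of complex 2, by 2.81, or 1.02 and 1.36 among gene-rich cells. Rptor ran from 0 to 219 CPM with a median of 75.1 in KO D1 cells, against 0 to 299 CPM with a median of 0 in WT D1 cells, and Rictor from 0 to 284 CPM with a median of 101 in KO D1 cells, against 0 to 326 CPM with a median of 0 in WT D1 cells. Each was read in 5 of 6 KO D1 and 7 of 15 WT D1 cells. The S6 kinase genes Rps6kb1 and Rps6kb2 differed by 2.35 and 3.10, or 0.61 and 1.59 among gene-rich cells. Rps6kb2 ran from 0 to 512 CPM with a median of 131 in KO D1 cells, against 0 to 477 CPM with a median of 0.463 in WT D1 cells, and Rps6kb1 from 0 to 303 CPM with a median of 68.4 in KO D1 cells, against 0 to 395 CPM with a median of 0.499 in WT D1 cells. For both genes the ranges overlapped nearly in full. For Rps6kb1 the sign was not stable: the log2 ratio of summed counts was -0.16. Of the 5167 exon bases of Rps6kb2, 1224 are shared with Ptprcap on the opposite strand.

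**Figure D3:**
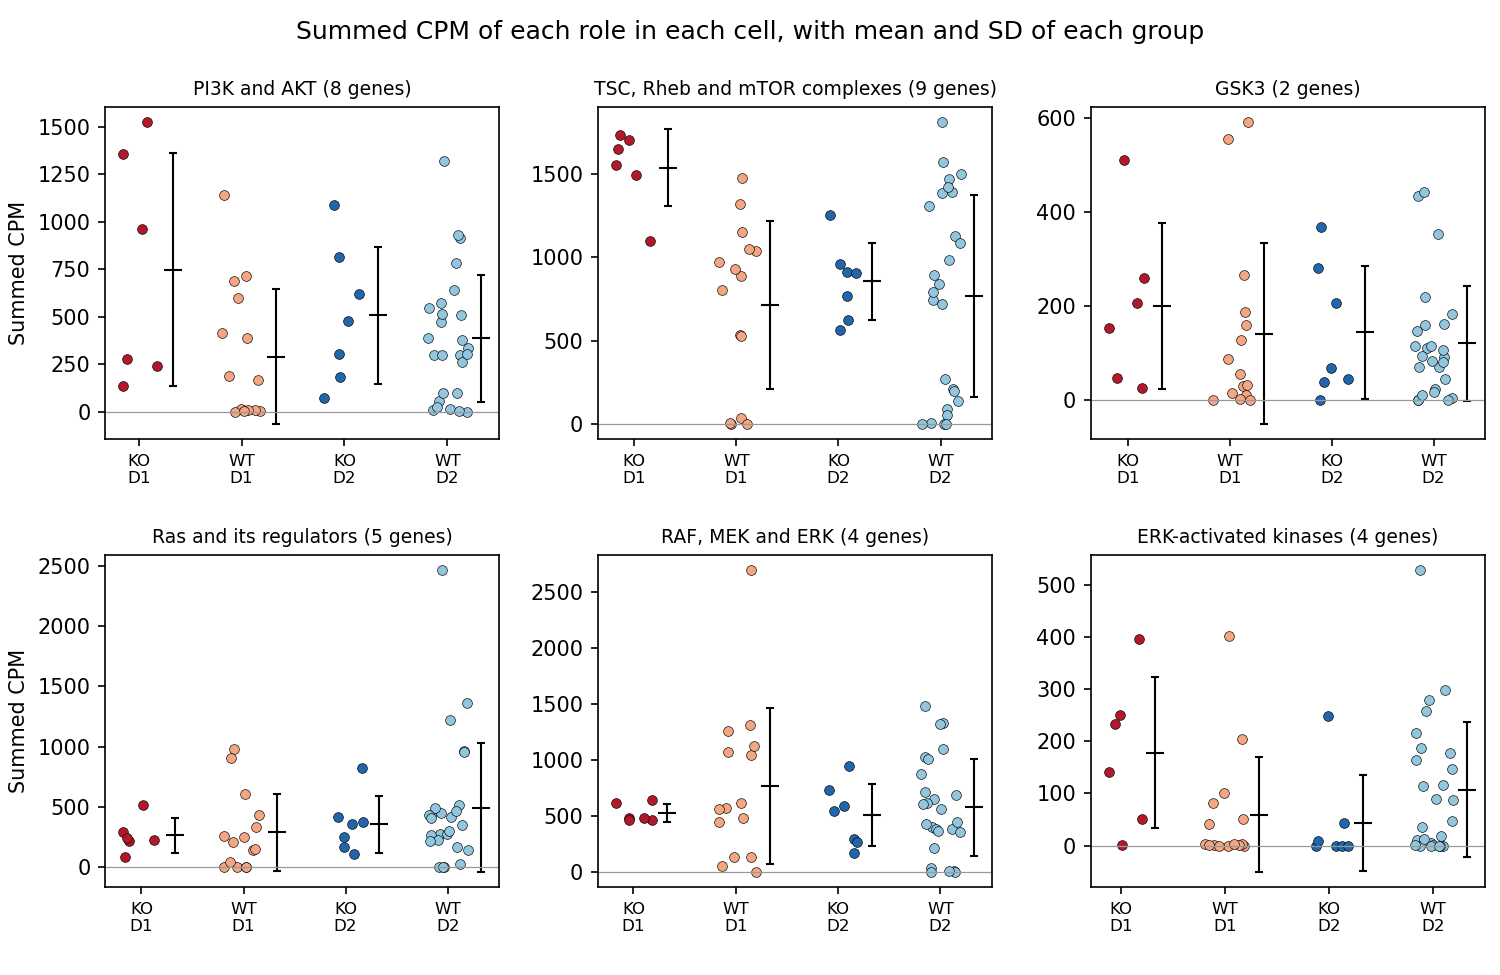
Summed CPM of the genes of each role (linear axis) in each cell, 1 panel per role; points are cells, and the bar with whiskers is the mean with SD of KO D1 (n = 6), WT D1 (n = 15), KO D2 (n = 7) and WT D2 (n = 26) cells. In the TSC, Rheb and mTOR panel the 6 KO D1 cells sit between 1096 and 1728 CPM, while in the RAF, MEK and ERK panel they sit within the range of the WT D1 cells.

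In the PI3K and AKT group 3 of 8 genes were past 2 log2 units. Pik3ca, the p110 alpha catalytic subunit, ran from 0 to 236 CPM with a median of 55.6 in KO D1 cells, against 0 to 141 CPM with a median of 0 in WT D1 cells. It differed by 3.71 over all cells and 2.79 among gene-rich cells, and was read in 5 of 6 KO D1 and 6 of 15 WT D1 cells; 5 of 6 KO D1 cells exceeded the WT D1 median, and the groups overlapped at 0.

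Pdpk1, the kinase PDK1 that phosphorylates AKT, differed by 3.04 (1.62 among gene-rich cells) and averaged 269 ± 287 CPM in KO D1 (SD, n = 6) and 16.2 ± 27.6 CPM in WT D1 cells (n = 15). No WT D1 cell exceeded the KO D1 median of 257 CPM, but 2 of 6 KO D1 cells had no read. Agap2 differed by 2.61 both over all and among gene-rich cells, with reads in 5 of 6 KO D1 and 10 of 15 WT D1 cells; in 6 of those 10 WT cells the reads numbered 1 to 3. Without cell 6 of KO D1 its difference was 1.86. The remaining genes of the group were below the threshold: Pik3cb at 1.87, Pik3r2 at 1.71, Pik3r1 at 1.29, Akt2 at 1.10 and Akt1 at -0.34. Among gene-rich cells Pik3cb and Akt2 were at 1.14 and 0.16, and Pik3r2, Pik3r1 and Akt1 were below 0, at -0.06, -0.94 and -1.63.

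Gsk3b was higher by 2.07 and its relative Gsk3a by 0.56, the AKT-inhibited kinases of the module. Gsk3b ran from 23.01 to 510 CPM with a median of 153 in KO D1 cells, against 0 to 590 CPM with a median of 44.9 in WT D1 cells. Its difference was 0.96 among gene-rich cells and 1.62 without cell 5 of KO D1, and that of Gsk3a was -1.17 among gene-rich cells.

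In the Ras and ERK arm, medians over the 5 Ras genes and the 4 RAF, MEK and ERK genes were 0.87 and 0.61, both below the 0.98 of all measured genes. The summed level of RAF, MEK and ERK genes averaged 526 ± 82.5 CPM in KO D1 (SD, n = 6) and 768 ± 693 CPM in WT D1 cells (n = 15). The WT D1 mean includes 6 gene-poor cells. Close relatives within the arm stood apart.

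Nras ran from 0.111 to 222 CPM with a median of 57.3 in KO D1 cells, against 0 to 84.4 CPM with a median of 0 in WT D1 cells, a difference of 3.73 (2.72 among gene-rich cells). Hras ran from 0 to 153 CPM with a median of 53.0 in KO D1 cells, against 0 to 981 CPM with a median of 111 in WT D1 cells, a difference of -1.02 (-3.33 among gene-rich cells). Every KO D1 cell exceeded the WT D1 median of Nras, whereas 6 of 15 WT D1 cells exceeded the highest KO D1 cell for Hras. Per kilobase, Hras was the higher of the 2 in 3 of 6 KO D1 cells and 7 of 7 KO D2 cells, against 11 of 15 WT D1 and 20 of 26 WT D2 cells; 0 of 15 WT D1 cells had the reverse order.

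Map2k2 ran from 54.3 to 466 CPM with a median of 243 in KO D1 cells, against 0 to 1075 CPM with a median of 2.997 in WT D1 cells, a difference of 3.62 (2.09 among gene-rich cells). Map2k1 ran from 0 to 182 CPM with a median of 31.0 in KO D1 cells, against 0 to 2467 CPM with a median of 123 in WT D1 cells, a difference of -1.69 (-3.03 among gene-rich cells). Per kilobase the mean levels of Map2k1 and Map2k2 were 17.8 and 42.9 CPM in KO D1 cells, against 117 and 29.4 CPM in WT D1 cells. The highest WT D1 levels of Map2k1 were in gene-poor cells, 2467 CPM in cell 14 and 1314 CPM in cell 3. These means were not taken among gene-rich cells alone. Map2k1 was the higher of the pair in 1 of 6 KO D1 cells and 3 of 7 KO D2 cells, against 9 of 15 WT D1 and 16 of 26 WT D2 cells, and Map2k2 the higher in 5 of 6 KO D1 cells. For summed counts the difference of Map2k2 was 0.60.

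The promoters of these 4 genes are shown because the members of each pair, close relatives in sequence and function, differed from WT D1 cells in opposite directions in KO D1 cells. Each window holds 250 bases before to 50 bases after the RefSeq gene start (GRCm38.p6), 5′ to 3′ on the gene's strand. Capitals mark matches on either strand to GGGCGG (GC box), TGACG (the half-site of the cAMP response element bound by CREB, which ERK-activated kinases phosphorylate), CACGTG (E-box) or TGTTTAC (the FOXO motif); adjoining GC boxes can overlap.
Map2k1, chr9:64253556-64253855, minus strand: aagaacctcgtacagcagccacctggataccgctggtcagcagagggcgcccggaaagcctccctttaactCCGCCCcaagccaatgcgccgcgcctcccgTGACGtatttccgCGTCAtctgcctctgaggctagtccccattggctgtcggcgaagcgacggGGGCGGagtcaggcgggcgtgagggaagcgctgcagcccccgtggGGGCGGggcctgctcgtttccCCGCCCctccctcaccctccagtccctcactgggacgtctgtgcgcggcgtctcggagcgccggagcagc
Map2k2, chr10:81105665-81105964, plus strand: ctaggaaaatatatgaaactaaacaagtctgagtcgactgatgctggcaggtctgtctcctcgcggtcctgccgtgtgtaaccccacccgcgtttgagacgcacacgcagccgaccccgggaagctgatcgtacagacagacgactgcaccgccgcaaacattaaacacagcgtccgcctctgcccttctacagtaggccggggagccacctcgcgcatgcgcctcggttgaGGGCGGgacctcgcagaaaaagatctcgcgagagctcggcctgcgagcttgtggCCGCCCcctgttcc
Hras, chr7:141193955-141194254, minus strand: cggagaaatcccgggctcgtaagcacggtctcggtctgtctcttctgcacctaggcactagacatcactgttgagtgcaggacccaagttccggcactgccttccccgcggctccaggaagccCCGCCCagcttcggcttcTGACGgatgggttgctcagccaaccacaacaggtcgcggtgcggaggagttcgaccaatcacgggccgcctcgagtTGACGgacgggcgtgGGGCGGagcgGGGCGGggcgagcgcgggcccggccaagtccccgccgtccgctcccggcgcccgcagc
Nras, chr3:103058035-103058334, plus strand: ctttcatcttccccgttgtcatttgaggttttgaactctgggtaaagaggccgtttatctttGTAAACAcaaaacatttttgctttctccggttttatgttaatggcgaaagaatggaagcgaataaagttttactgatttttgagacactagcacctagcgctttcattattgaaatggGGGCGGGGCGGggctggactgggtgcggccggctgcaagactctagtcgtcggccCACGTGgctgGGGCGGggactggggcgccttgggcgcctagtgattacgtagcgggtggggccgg

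The Map2k1 and Hras windows each held 2 half-sites, and the Map2k2 and Nras windows 0. Members past +2 in KO D1 over all cells held half-sites too: the Braf window held 5 and those of Tsc1, Rheb, Rptor and Rictor 1 each. The part of the half-site in the differences was not tested. Among the 29 members in the promoter table, 10 held the half-site (34.5%), against 21.02% of all 27025 windows and 33.7% of the 8437 of genes measured over the 54 cells; Mapk3, Rps6kb2 and Rps6ka3 are the others of the 32. GC boxes were found in 20 member windows (69.0%, against 66.4% of measured genes), E-boxes in 3 (10.3%, against 10.5%) and FOXO motifs in 2 (6.90%, against 2.32%). A match describes the letters in the window and no binding was measured.

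**Figure D4:**
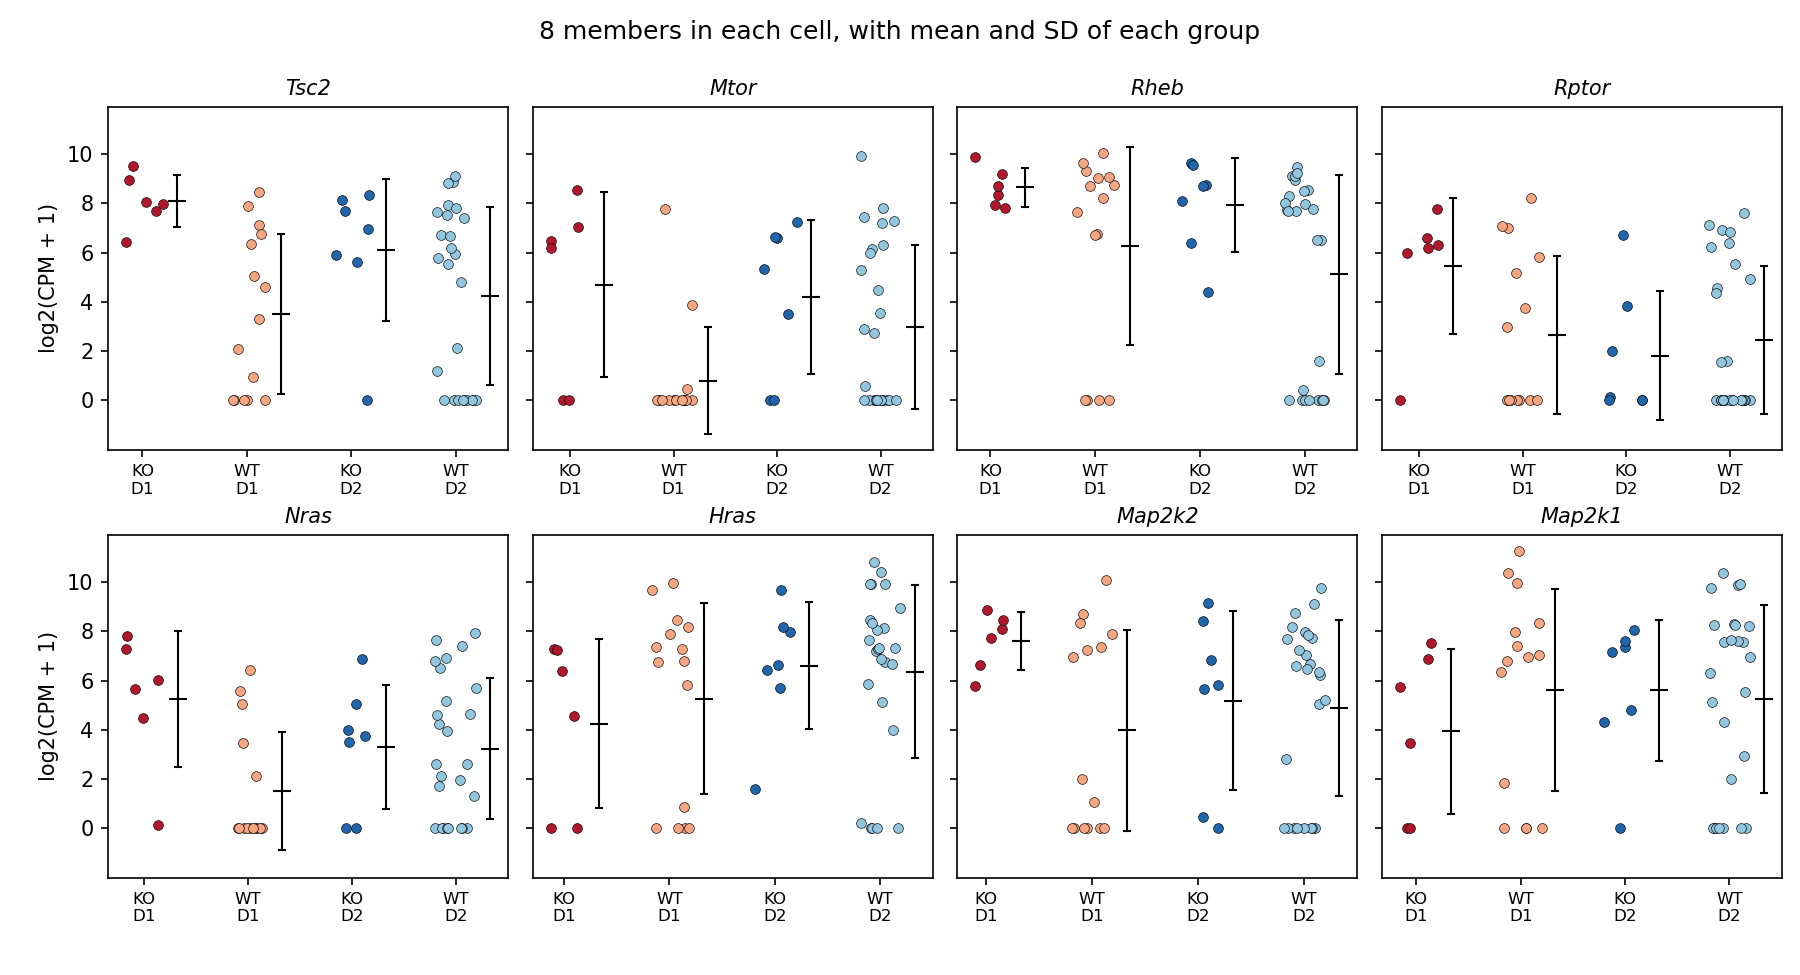
log2(CPM + 1) of 8 members in each cell, with the mean and SD of each group (KO D1 n = 6, WT D1 n = 15, KO D2 n = 7, WT D2 n = 26). Tsc2, Nras and Map2k2 lie above their WT D1 medians in all 6 KO D1 cells, while Hras does so in 2 and Map2k1 in 1 of them.

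Among the other genes of the arm, Braf, the neuronal RAF kinase, was higher by 2.51 (0.39 among gene-rich cells), at 0 to 312 CPM with a median of 183 in KO D1 cells, against 0 to 368 CPM with a median of 15.3 in WT D1 cells. Mapk3 differed by -1.29 (-1.02 among gene-rich cells), with reads in 2 of 6 KO D1 and 9 of 15 WT D1 cells. Sos1 and Sos2, exchange factors that load Ras with GTP, differed by 0.60 and 1.19 (-0.77 and 1.05 among gene-rich cells), and Nf1, neurofibromin, which switches Ras off, by 0.87 (-0.08). Of the kinases activated by ERK, Mknk2, which phosphorylates the cap-binding protein eIF4E, was higher by 2.68, by 1.80 among gene-rich cells and by 1.89 without cell 5 of KO D1. It ran from 0 to 250 CPM with a median of 70.6 in KO D1 cells, against 0 to 204 CPM with a median of 0 in WT D1 cells. The RSK genes Rps6ka3 and Rps6ka2 differed by 1.87 and 1.36, and Mknk1 by -0.22, or 1.73, 0.99 and -1.001 among gene-rich cells.

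Against the 3 WT D1 cells of 31 days, the only ones of the ages of the KO cells, 9 members were past +2 and the members' median was 0.86, against 0.35 over all genes. The share of all genes past +2 against these cells is not given here. Tsc2, Mtor, Rheb, Rptor, Nras, Pik3ca, Map2k2, Agap2 and Mknk2 then differed by 3.22, 3.26, 3.49, 2.75, 2.84, 4.67, 2.50, 2.11 and 2.77. Of the 3 WT D1 cells, cell 11 was gene-poor, with reads of 4 members and of none of these 9. The differences at this age without cell 11 were not computed. The other 7 members past 2 over all cells were below it: Pdpk1, Braf, Gsk3b, Tsc1, Rps6kb2, Rictor and Rps6kb1 differed by 1.89, 1.82, 1.55, 0.98, 0.63, 0.22 and -0.10. Thinning each cell to 250000 reads left Tsc2 in 6 of 6 KO D1 and 8 of 15 WT D1 cells and Mtor in 4 of 6 KO D1 and 2 of 15 WT D1 cells. The difference of Rheb was 1.94 without WT D1 cell 5, and that of Rps6kb1 was 1.78 without KO D1 cell 2.

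**Figure D5:**
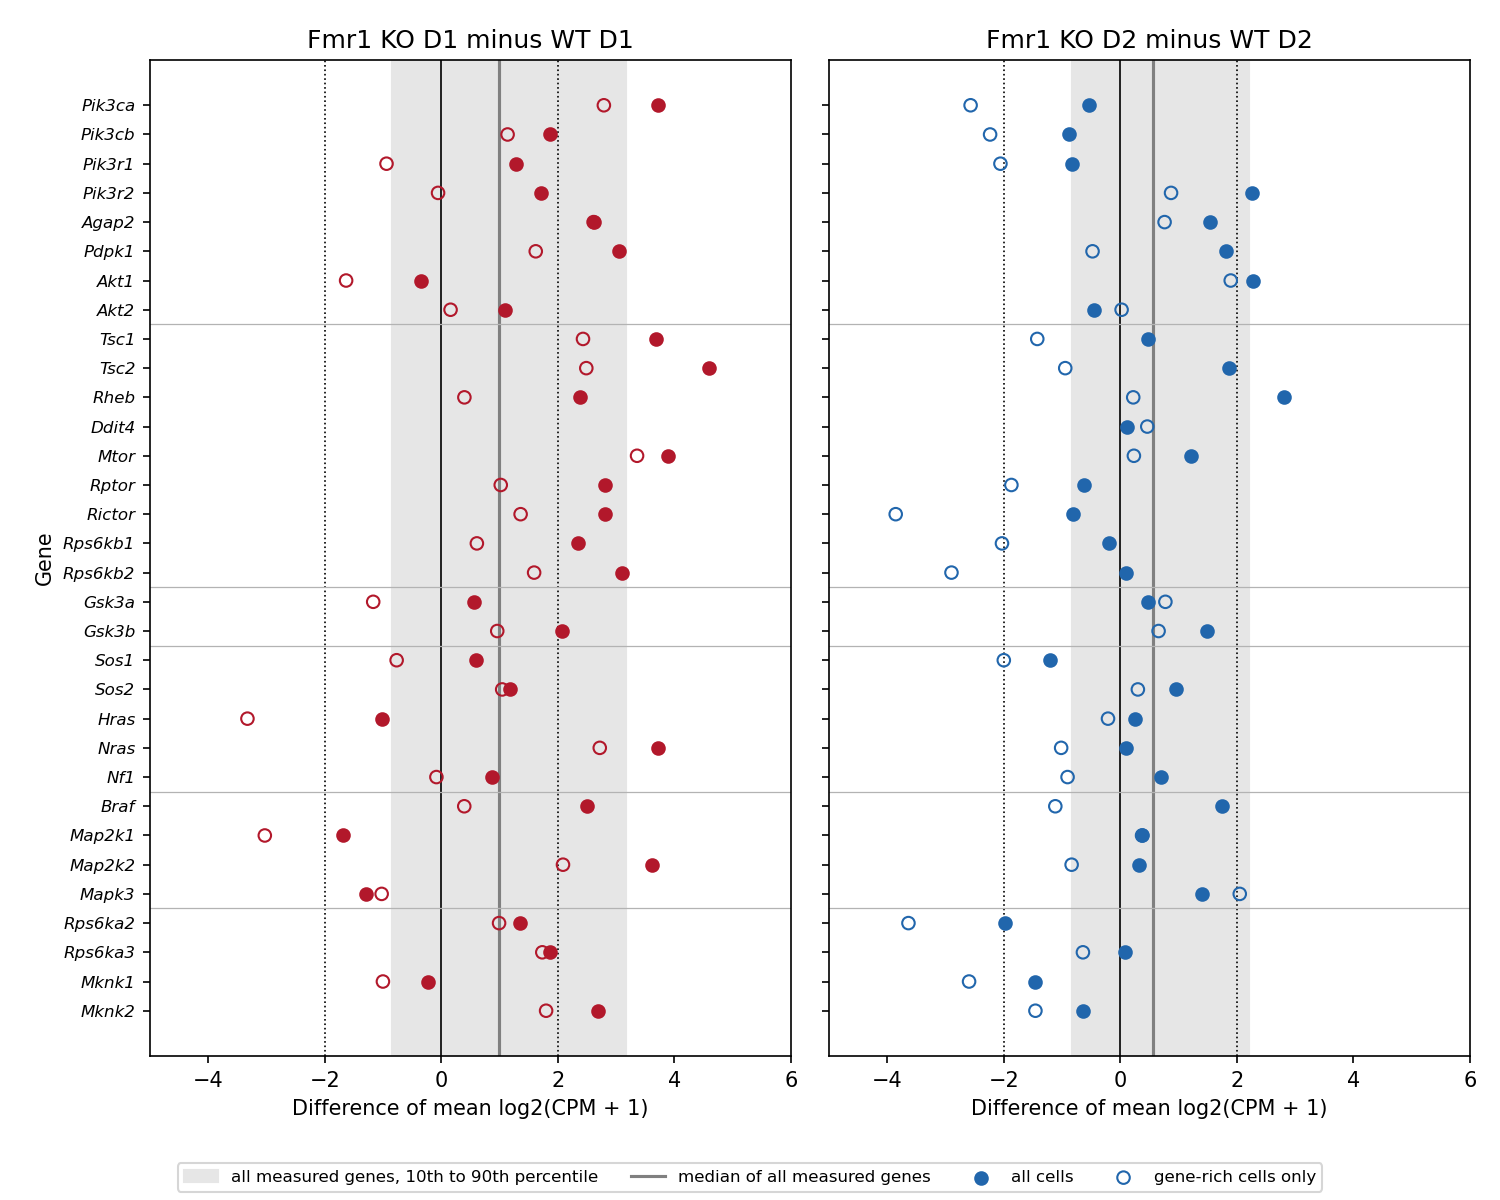
Difference of mean log2(CPM + 1), KO minus WT, of each measured member (rows, grouped by role) in D1 cells (left) and D2 cells (right); filled points use all cells and open points gene-rich cells, the grey band spans the 10th to 90th percentile of all measured genes and the grey line their median (0.98 in D1, 0.56 in D2). In D1, the 8 measured TSC, Rheb and mTOR genes lie right of the dotted line at 2, while Map2k1, Mapk3 and Hras lie left of 0; in D2, Rheb, Akt1 and Pik3r2 pass 2.

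The second comparison set KO D2 against WT D2 cells, where fewer members were past the threshold. Of 32 measured members, 3 were higher by at least 2 log2 units and 0 lower, against 12.7% and 0.633% of all 11222 measured genes. The members' median of 0.28 lay below the 0.56 of all genes, and 12 of the 32 exceeded that value. Among gene-rich cells the members' median was -0.87, against -0.39 over all genes, with 1 member higher and 9 lower by 2 log2 units, against 4.21% and 12.1% of all genes.

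Rheb ran from 19.98 to 795 CPM with a median of 413 in KO D2 cells, against 0 to 716 CPM with a median of 206 in WT D2 cells. It differed by 2.81, and by 0.22 among gene-rich cells. All 7 KO D2 and 18 of 26 WT D2 cells had reads, and 16 WT D2 cells reached the lowest KO D2 cell.

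Akt1, the AKT kinase that phosphorylates tuberin, ran from 0 to 189 CPM with a median of 15.5 in KO D2 cells, against 0 to 168 CPM with a median of 0 in WT D2 cells. It differed by 2.28 (1.89 among gene-rich cells), and by 1.58 without cell 4 of KO D2. Reads were found in 4 of 7 KO D2 and 7 of 26 WT D2 cells, and the ranges overlapped.

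Pik3r2, the p85 beta regulatory subunit of PI3K, ran from 0 to 388 CPM with a median of 92.3 in KO D2 cells, against 0 to 212 CPM with a median of 5.96 in WT D2 cells. It differed by 2.26 (0.87 among gene-rich cells), and by 1.73 without cell 6 of KO D2. It was read in 6 of 7 KO D2 and 14 of 26 WT D2 cells, and 3 KO D2 cells lay above every WT D2 cell.

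The largest negative differences were those of 2 kinases activated by ERK. Rps6ka2, the kinase RSK3, ran from 0 to 4.03 CPM with a median of 0 in KO D2 cells, against 0 to 278 CPM with a median of 0 in WT D2 cells, a difference of -1.98 (-3.64 among gene-rich cells). It was read in 2 of 7 KO D2 and 11 of 26 WT D2 cells, and 9 of 26 WT D2 cells reached the highest KO D2 cell. Mknk1, a kinase of eIF4E, was read in 0 of 7 KO D2 cells, which allows a share of up to 40.96%, against 8 of 26 WT D2 cells. The WT D2 share of 30.8% lies below that limit, so a lower share in KO D2 was not detectable with 7 cells.

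The 9 TSC, Rheb and mTOR genes had a median difference of 0.11 over all and -1.43 among gene-rich D2 cells. Their summed level over all cells was 855 ± 231 CPM in KO D2 (SD, n = 7) and 769 ± 604 CPM in WT D2 cells (n = 26). It ran from 565 to 1252 CPM in KO D2 and from 0 to 1806 CPM in WT D2 cells. Of the 26 WT D2 cells, 8 reached the highest KO D2 cell. The WT D2 mean includes 13 gene-poor cells, and no sum was taken among gene-rich cells alone. Tsc2 differed by 1.86, Mtor by 1.21, Tsc1 by 0.48, Rptor by -0.63 and Rictor by -0.82. Among gene-rich cells these differences were -0.95, 0.23, -1.43, -1.87 and -3.86. Of the remaining members, Pdpk1 (1.82), Braf (1.74), Agap2 (1.54), Gsk3b (1.48) and Mapk3 (1.41) were the highest and Sos1 (-1.21), Pik3cb (-0.89), Pik3r1 (-0.84), Mknk2 (-0.65) and Pik3ca (-0.54) the lowest. Among gene-rich cells Pdpk1 and Braf were below 0, at -0.48 and -1.12, and Agap2, Gsk3b and Mapk3 were at 0.76, 0.65 and 2.05. The lowest 5 were at -2.003, -2.24, -2.06, -1.46 and -2.57 there. Map2k1, Map2k2, Hras and Nras differed by 0.37, 0.31, 0.25 and 0.09, or 0.37, -0.84, -0.21 and -1.02 among gene-rich cells. Sos2, Nf1, Gsk3a, Ddit4, Rps6kb2, Rps6ka3, Rps6kb1 and Akt2 lay between 0.95 for Sos2 and -0.46 for Akt2, and among gene-rich cells between 0.77 for Gsk3a and -2.90 for Rps6kb2.

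The third comparison set WT D1 against WT D2 cells. Over all cells the members were a little lower in D1, with a median of -0.70 against -0.14 over all 11059 measured genes. Of the 32 members 23 were below 0 and 9 above, where 42.997% of all measured genes were above 0. By 2 log2 units 0 members were higher and 1 lower, against 1.01% and 1.33% of all genes. Among gene-rich cells the medians lay closer, at -0.75 for the members and -0.499 for all genes. There 14 of 32 members exceeded the median of all genes, against 11 of 32 over all cells. By 2 log2 units 0 members were higher and 8 lower among gene-rich cells, against 2.53% and 12% of all genes.

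Mtor was the member past the threshold, at 0 to 217 CPM with a median of 0 in WT D1 cells, against 0 to 962 CPM with a median of 3.05 in WT D2 cells, a difference of -2.18 (-3.32 among gene-rich cells). It was read in 3 of 15 WT D1 and 14 of 26 WT D2 cells (53.8%, exact 95% interval 33.4 to 73.4%). Within ages the difference was -2.96 at 29 days, 0.22 at 30 days, -1.28 at 31 days and -1.36 at 34 days. No WT D1 cell of 29 days (n = 4) or 34 days (n = 2) had a read of Mtor, so a positive difference was not possible at those ages. At 34 days the difference rested on WT D2 cell 21, at 5.60 CPM. Over all ages the difference was -1.90 without cell 8 of WT D2. Rps6ka2 followed at -1.80, then Nras at -1.72 and Tsc1 at -1.49, or -3.15, -1.78 and -2.73 among gene-rich cells. The WT D1 cells also served in the KO D1 comparison, so the differences of Mtor, Nras and Tsc1 there and here share the same low values: these genes were read in 3, 5 and 6 of 15 WT D1 cells.

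The fourth comparison set KO D1 against KO D2 cells, whose ages nearly match and of which 6 and 6 were gene-rich. Of 31 measured members 9 were higher in KO D1 by at least 2 log2 units and 1 lower, against 15.2% and 6.8% of all 10990 measured genes. The median of the members was 1.07, against 0.29 over all genes, and among gene-rich cells 0.69 against 0.02, with 7 higher and 2 lower, against 12% and 10.5%. These cells also enter the comparisons with WT above.

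Rptor ran from 0 to 219 CPM with a median of 75.1 in KO D1 cells, against 0 to 105 CPM with a median of 0.109 in KO D2 cells, and differed by 3.66 (3.38 among gene-rich cells). Mknk2 ran from 0 to 250 CPM with a median of 70.6 in KO D1 cells, against 0 to 54.6 CPM with a median of 0 in KO D2 cells, and differed by 3.18 (3.04 among gene-rich cells). In both genes 5 of 6 KO D1 cells exceeded the KO D2 median and 1 KO D1 cell had no read.

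Rictor, Rps6kb1 and Rps6kb2 differed by 2.68, 2.60 and 2.53, so 5 of 9 genes of the TSC, Rheb and mTOR group were past the threshold with Tsc2 at 2.00. Among gene-rich cells Rictor, Rps6kb1, Rps6kb2 and Tsc2 differed by 2.21, 2.13, 1.92 and 2.27. The group's summed level was 1536 ± 233 CPM in KO D1 (SD, n = 6) and 855 ± 231 CPM in KO D2 cells (n = 7), and 5 of 6 KO D1 cells lay above every KO D2 cell. Of the PI3K catalytic subunits, Pik3ca differed by 2.90 and Pik3cb by 2.37, and of the MEK genes Map2k2 by 2.41 and Map2k1 by -1.68. Among gene-rich cells these were 2.52, 2.27, 1.55 and -2.62.

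Hras was the member lower in KO D1, at 0 to 153 CPM with a median of 53.0 in KO D1 cells, against 2.03 to 814 CPM with a median of 98.7 in KO D2 cells, a difference of -2.35 (-1.84 among gene-rich cells). Single cells decided several of these calls: Tsc2 was 0.99 without KO D2 cell 6, Pik3cb 1.36 without KO D1 cell 4, Map2k2 1.55 without KO D2 cell 5, Rps6kb2 1.92 without KO D2 cell 2 and Hras -1.50 without KO D1 cell 4.

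Paralogs were read together in some cells and singly in others. Of the 54 cells, Akt1 and Akt2 were read together in 11, singly in 9 each and neither in 25, and Sos1 and Sos2 together in 12 and neither in 19. The TSC genes and the MEK genes were each read together in 32 cells. The S6 kinase gene Rps6kb2 was higher per kilobase than Rps6kb1 in 24 cells and lower in 14, and Pik3r2 higher than Pik3r1 in 25 and lower in 19.

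Beyond the members, 82 further genes of the same pathways were taken as 4 lists. In KO D1 against WT D1 cells, 3 of 5 receptor and Homer genes were past +2 and 0 past -2: Homer1 (4.53), the scaffold that tethers the receptors to Agap2, Homer2 (3.54) and Grm5 (2.35), one of the receptors, where 27.6% of all measured genes were past +2. Among gene-rich cells Homer1, Homer2 and Grm5 were at 2.83, 2.37 and 0.46, and the list's median was 0.46, against 2.35 over all cells. Homer1 ran from 410 to 1903 CPM with a median of 653 in KO D1 cells, against 0 to 481 CPM with a median of 32.1 in WT D1 cells. Among the further Ras and ERK genes 9 of 28 were past +2 and 0 past -2, near the share of all genes, with the largest values in Rasal1 (5.08), a Ras GTPase-activating protein, Dusp6 (3.73), the ERK phosphatase induced by ERK signalling, and Ptpn5 (3.50), the striatal-enriched phosphatase that acts on ERK. Among gene-rich cells 2 of the list were past +2 and 3 past -2, with a median of -0.05, and these 3 genes were at 2.89, 1.42 and 0.80. Of the further PI3K genes, Sgk1, a kinase activated by PDK1, was past +2 (2.54; 0.90 among gene-rich cells). Of 26 further mTOR genes 3 were past +2 and 1 past -2. The largest of these were Lamtor2 (-3.44), a subunit of the lysosomal Ragulator complex, Depdc5 (2.88), a subunit of the inhibitory GATOR1 complex, and Akt1s1 (2.82), an inhibitory subunit of mTOR complex 1, at -4.04, 2.94 and 2.56 among gene-rich cells, where 2 of the list were past +2 and 4 past -2.

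In KO D2 against WT D2 cells, 0 of 5 receptor and Homer genes were past +2 and 1 past -2, Homer3 (-2.49; -3.85 among gene-rich cells). Of all measured genes 12.7% were past +2 here. Of the further PI3K genes, Inpp5f, a phosphoinositide phosphatase, was past +2 (4.14; 2.59 among gene-rich cells). Of 27 further mTOR genes 5 were past +2, the largest Nprl3 (2.99) of GATOR1 and the Rag GTPase genes Rragb (2.74) and Rragd (2.57), at 2.48, 0.37 and 2.61 among gene-rich cells, where 2 were past +2 and 1 past -2. Of 30 further Ras and ERK genes 5 were past +2, the largest Creb1 (2.99), a transcription factor phosphorylated by RSK, Rasgrp1 (2.69), a Ras exchange factor, and Rras2 (2.38). Among gene-rich cells these were at 1.21, 0.69 and 2.90, and 1 of the list was past +2 and 4 past -2, with a median of -0.37.

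Transcripts of other cell types were present. The summed level of 11 microglial markers, all read in every group, had medians of 439 CPM in KO D1 (0.453 to 2234) and 249 CPM in KO D2 (39.6 to 3482), against 898 CPM in WT D1 (0.319 to 10584) and 588 CPM in WT D2 cells (0.167 to 5971). The 8 astrocyte markers had medians of 385 CPM in KO D1 (0 to 965; Gfap and Aldh1l1 at 0) and 292 CPM in KO D2 (25.5 to 819; Aldh1l1 at 0), against 506 CPM in WT D1 (0 to 12675) and 367 CPM in WT D2 cells (0 to 9346). The 8 oligodendrocyte markers had medians of 393 CPM in KO D1 (0 to 2433; Mog, Mag, Olig1 and Olig2 at 0) and 1062 CPM in KO D2 (99.4 to 11094; Mog at 0), against 338 CPM in WT D1 (0 to 13691; Olig2 at 0) and 583 CPM in WT D2 cells (0.999 to 11147). Of 7 interneuron markers 2 were read in KO D1 and 6 in each other group, and of 5 endothelial markers 2 in KO D1 and 1 in KO D2, against 3 in WT D1 and 4 in WT D2, with medians of at most 44.1 CPM for the interneuron list and 0.499 CPM for the endothelial one. The members are expressed in many cell types, and the part of these transcripts in the differences was not tested.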

How the data were processed

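The deposited table of raw counts per gene symbol was used as the authors left it; per the submitters' processing notes, Trimmomatic, STAR, featureCounts and the GRCm38 build were used, with versions and strand setting not given in the sources used here. A deposited table of normalized values, a signal with the authors' own scaling, served as an alternative. Labels matched no sample to 2 columns of counts, which were not used.

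Counts were turned into CPM per cell over 22800 symbols, and groups were compared as differences of mean log2(CPM + 1). No statistical test was run, since cells are not tied to animals in the labels. A gene was measured at a mean of at least 1 CPM with reads in at least 10% of the cells compared; differences of 2 log2 units were counted. Gene-rich cells had reads in at least 4000 genes, and cells were thinned to 250000 reads for shares. Exon lengths came from GENCODE vM21 and promoters from RefSeq. Scripts used Python 3.11.15, numpy 2.4.6, pandas 2.3.3, scipy 1.17.1, matplotlib 3.10.9, R 4.3.3 and edgeR 4.0.16 (TMM scaling alone), and were tested on simulated data. All members at or past 2 log2 units in a comparison were described, or the 4 with the largest differences where fewer passed, with the 5 highest by mean CPM and any member without a read in a group. The members and lists were chosen with earlier results of these data known. Total counts per cell, 260943 to 10673072, limit the precision of low levels. A KO D1 cell labelled as failing quality control was kept out of the comparisons. Some results of the further PI3K genes are not reported here.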

Additional observations from a re-analysis of the deposited data

Results flagged for a closer look

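Among 65 sets of values of the KO groups (levels as log2(CPM + 1), and members with a read), 12 held a cell whose gap to the nearest other cell, over the whole range, passed Dixon's 95% critical value. Chance flags about 1 in 20 groups where values are normally distributed. These levels, with many cells at 0, are not, so that rate cannot be set against the 12. In KO D1, cell 3 had 0 CPM of Pik3r1 and 0 CPM of Rps6kb1, where the other 5 cells had 30.7 to 111 CPM and 36.1 to 303 CPM. Cell 5 had 0 CPM of Rptor, where the others had 61.9 to 219 CPM, and 0 CPM of Braf, where the others had 110 to 312 CPM. Cell 4 alone had reads of Mknk1, at 50.6 CPM.

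In KO D2, cell 6 had 0 CPM of Tsc2, where the others had 47.6 to 327 CPM. Cell 5 had 0 CPM of Gsk3b, where the others had 30.7 to 341 CPM, and reads of 11 members, where the others had 20 to 26. Cell 1 had 54.6 CPM of Mknk2 and 4.03 CPM of Rps6ka2, against at most 0 and 0.130 CPM in the others. Cell 2 had 8.88 CPM of Pik3cb, against at most 0.963 CPM, and cell 7 alone had reads of Ddit4, at 17.7 CPM. The KO D1 cell that failed quality control, used in no comparison, still held reads of 3 members.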

How the results depend on the processing

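The members' median stayed above 0 for KO D1 minus WT D1 and KO D1 minus KO D2 under the alternatives run. It was 0.52 from summed counts in the KO D1 minus WT D1 comparison. Summed counts weight cells by depth. The KO D2 minus WT D2 median was -0.019 with a pseudocount of 10 CPM, -0.32 from summed counts and -0.87 in gene-rich cells. The WT D1 minus WT D2 median was 0.88 at 31 days alone. Rps6kb1 in KO D1 minus WT D1 was -0.16 from summed counts and -0.10 against WT cells of 31 and 32 days, and Mtor in WT D1 minus WT D2 was 0.22 at 30 days alone. The cause of these changes was not tested.

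Counts of members at or past 2 log2 units moved more. The shares of all measured genes are given above for all cells and for gene-rich cells. For the other settings, here and below, they are not given. The counts at those settings thus do not show whether the members moved apart from other genes. In KO D1 minus WT D1, those higher numbered 5 with a pseudocount of 10 CPM, 4 from summed counts, 7 in gene-rich cells and 9 against WT cells of 31 and 32 days; those lower numbered 1 with a pseudocount of 0.1 CPM, 2 from summed counts, 2 in gene-rich cells and 3 at a threshold of 1 log2 unit. In KO D2 minus WT D2, those higher numbered 0, 8, 0, 1, 10 and 6 with a pseudocount of 10 CPM, of 0.1 CPM, from summed counts, in gene-rich cells, at a threshold of 1 and against WT cells of 31 and 32 days. Those lower numbered 1 with mitochondrial and ribosomal RNA genes left out of the CPM, 2 with a pseudocount of 0.1 CPM, 7 from summed counts, 9 in gene-rich cells, 3 at a threshold of 1 and 1 against WT cells of 31 and 32 days.

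In WT D1 minus WT D2, those higher numbered 2 at a threshold of 1, and 2, 3, 10 and 4 at 29, 30, 31 and 34 days alone. Those lower numbered 0 with a pseudocount of 10 CPM, 4 with 0.1 CPM, 3 from summed counts, 8 in gene-rich cells, 7 at a threshold of 1, 11, 0 and 7 at 29, 30 and 34 days alone, and 0, 3 and 4 with days other than 29, 30 and 31. In KO D1 minus KO D2, those higher numbered 1 and 14 with pseudocounts of 10 and 0.1 CPM and 16 at a threshold of 1, and those lower 2 on the authors' normalized values, 0 and 4 with pseudocounts of 10 and 0.1 CPM, 2 in gene-rich cells and 4 at a threshold of 1.

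Leaving out each cell in turn gave medians of 1.78 to 2.38 for KO D1 minus WT D1, 0.04 (without KO D2 cell 3) to 0.86 (without KO D2 cell 5) for KO D2 minus WT D2, -0.92 to -0.45 for WT D1 minus WT D2 and 0.69 to 1.59 for KO D1 minus KO D2. Counts of members higher ran from 13 to 19, 1 to 5, 0 to 0 and 7 to 11 in these comparisons, and of members lower from 0 to 1, 0 to 1, 0 to 2 and 1 to 4; none was lower in WT D1 without WT D2 cell 8, 17 or 18. No paired analysis was possible because no label pairs cells across groups and no test was run.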
